A study of Homo sapiens with 12 samples.

Results

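The genes described here encode the protein subunits of the mitochondrial respiratory chain and of ATP synthase, 102 of the 19973 genes in the deposited table. They were taken by symbol alone. Of these members, 13 lie on mitochondrial DNA (symbols beginning MT-ND, MT-CO, MT-CYB or MT-ATP) and 89 lie in the nucleus (the NDUFA, NDUFB, NDUFC, NDUFS, NDUFV, SDH, UQCR and ATP5 families and the COX4 to COX8 families, with the NDUFAF and SDHAF assembly factors left out). The mitochondrial members comprise 7 subunits of complex I, 1 of complex III, 3 of complex IV and 2 of complex V, and the nuclear members 37 of complex I, 4 of complex II, 9 of complex III, 19 of complex IV and 20 of complex V. The symbols also take in a few genes that are not fixed subunits, among them ATP5IF1, an inhibitor of ATP synthase, COX7A2L, a factor in the assembly of supercomplexes, and the readthrough genes NDUFC2-KCTD14 and ATP5MF-PTCD1. They leave out some true subunits, among them CYC1 of complex III and NDUFAB1 of complex I, so the members are not the full set.

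Electrons enter the chain from NADH at complex I and from succinate at complex II, pass through coenzyme Q, complex III and cytochrome c to complex IV, and reduce oxygen there, while the proton gradient built on the way drives ATP synthase, complex V. All complexes except complex II combine subunits of both genomes. Mitochondrial DNA is copied inside the organelle into long transcripts of each strand that are cut into shorter RNAs. Each nuclear subunit, in contrast, has its own promoter and is imported as protein. Normal prostate epithelium is known for secreting citrate rather than oxidising it, and prostate cancer cells for oxidising more of it.

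RNA was sequenced from 4 groups of 3 libraries, made from cells of human prostate cancer lines. C4-2 ARv7 cells stably expressed ARv7, a splice variant of the androgen receptor that lacks the ligand-binding domain, from a lentivirus, and C4-2 control cells carried a control lentivirus. 22Rv-1 shARv7 cells carried a lentiviral short hairpin against ARv7, and 22Rv-1 shcontrol cells carried a control hairpin. C4-2 is a castration-resistant derivative of LNCaP, and 22Rv-1 is a line that makes ARv7 of its own. All 4 groups were infected with lentivirus, selected with puromycin and grown in medium with fetal bovine serum. The libraries of a group were triplicate dishes. The number of selected populations behind each group is not stated in the labels, so p-values measure the spread between dishes.

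Libraries held 12318529 to 14672948 counts. The androgen receptor gene, whose counts include the full-length form as well as ARv7, stood at 781 to 821 CPM (counts scaled to a common library total of 1000000, here by total counts) in C4-2 ARv7 cells and 433 to 444 in C4-2 control cells, and at 609 to 655 in 22Rv-1 shARv7 cells and 989 to 1027 in 22Rv-1 shcontrol cells. The 8 prostate epithelial markers examined summed to 2891 to 7753 CPM over all libraries and all had counts in each group, whereas the endothelial markers summed to at most 9.09 CPM, the leukocyte markers to at most 12.97 CPM and the striated muscle markers to at most 2.11 CPM. Fibroblast markers summed to 15.5 to 17.6 CPM in C4-2 ARv7 cells, 7.75 to 9.54 in C4-2 control cells, 30.7 to 34.5 in 22Rv-1 shARv7 cells and 45.4 to 47.2 in 22Rv-1 shcontrol cells. Of these 6 markers, 2 had 0 counts in C4-2 control cells, and all had counts in the other groups. Which cells these counts came from was not tested. C4-2 control replicate 3 stood apart from the other libraries of its group: over genes, chi-square divided by its degrees of freedom came to 12.3 and 6.85 against them, where replicate pairs elsewhere gave 2.10 to 4.64.

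The balance of the genomes differed the same way in both lines: mitochondrially encoded subunits took a smaller part of the respiratory chain counts when ARv7 was added to C4-2 cells and when it was depleted from 22Rv-1 cells. The 13 mitochondrial members together held 3.52%, 3.36% and 3.30% of all counts in C4-2 ARv7 cells, against 4.07%, 4.34% and 4.66% in C4-2 control cells. They held 3.43%, 3.35% and 3.34% in 22Rv-1 shARv7 cells, against 3.98%, 3.94% and 3.94% in 22Rv-1 shcontrol cells. The groups did not overlap in either line, and the highest share was in C4-2 control replicate 3. The 89 nuclear members held 0.863% ± 0.00836 of counts in C4-2 ARv7 cells and 0.854% ± 0.0203 in C4-2 control cells, where the groups overlapped, and 0.885% ± 0.0169 in 22Rv-1 shARv7 cells and 0.793% ± 0.0132 in 22Rv-1 shcontrol cells, where they did not (SD, n = 3 each).

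Counts of the mitochondrial members over those of the nuclear members gave a ratio of 3.94 ± 0.157 in C4-2 ARv7 cells and 5.10 ± 0.226 in C4-2 control cells, a difference of -0.373 on the log2 scale. The ratio was 3.81 ± 0.0376 in 22Rv-1 shARv7 cells and 4.98 ± 0.0724 in 22Rv-1 shcontrol cells, a difference of -0.386 (SD, n = 3 each). All 6 libraries with ARv7 added or depleted lay between 3.79 and 4.12, and all 6 control libraries lay between 4.88 and 5.33. Without C4-2 control replicate 3 the C4-2 difference was -0.341. With 1 value per member in place of sums (medians of log2(CPM + 1)), the differences were -0.248 and -0.287. No test was run on this ratio, since it is a sum over chosen members. In RNA from whole cultures, fewer mitochondrial genomes or cells of a kind and less RNA per genome or cell cannot be told apart.

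**Figure D1:**
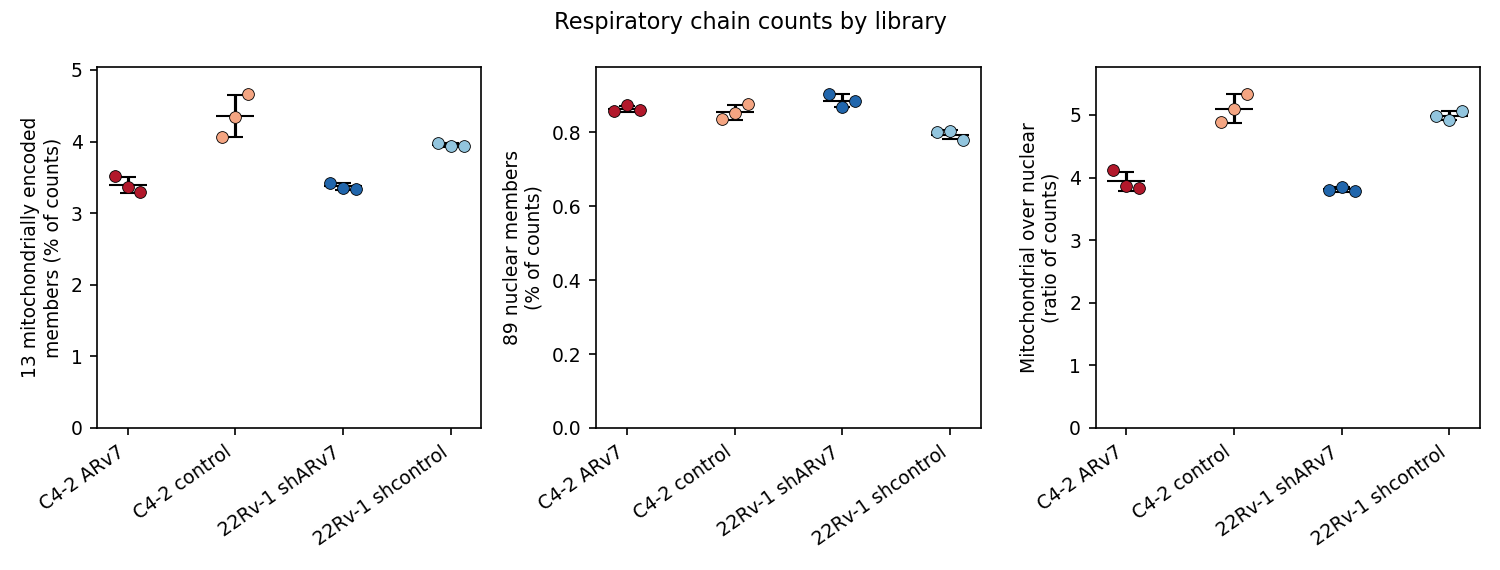
Share of all counts held by the 13 mitochondrial members (left, %), by the 89 nuclear members (middle, %) and the ratio of mitochondrial to nuclear counts (right), by library (points) with group mean and SD (bars, n = 3 each). The mitochondrial share and the ratio are lower in C4-2 ARv7 than in C4-2 control and lower in 22Rv-1 shARv7 than in 22Rv-1 shcontrol, with no overlap.

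In C4-2 cells, ARv7 expression went with lower RNA of nearly all mitochondrial protein genes. Of the 13 mitochondrial members, 12 fell and 0 rose by edgeR's quasi-likelihood test (adjusted p under 0.05 over all 12783 genes tested), where 59.1% of all genes tested were called, 29.5% as lower and 29.6% as higher. Their median log2 fold change was -0.60, against 0.01 over all genes tested. Without C4-2 control replicate 3, which stood apart, all 13 fell. CPM values for the comparison within a line are scaled by TMM within that line. Statements below that groups did not overlap describe single genes. The share of all genes without overlap was not computed, so they carry no comparison with other genes.

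MT-ND2 and MT-ND1, the first protein genes on the mitochondrial map, had the lowest fold changes. MT-ND2, a membrane subunit of complex I, had 2058, 1939 and 1932 CPM in C4-2 ARv7 cells, against 3316, 3635 and 3955 CPM in C4-2 control cells (log2 fold change -0.88 ± 0.07 (SE), adjusted p = 9.14e-10). MT-ND1, its neighbour in the membrane arm, had 1441, 1326 and 1335 CPM in C4-2 ARv7 cells, against 2268, 2449.7 and 2746 CPM in C4-2 control cells (log2 fold change -0.86 ± 0.07 (SE), adjusted p = 1.85e-09). The control libraries were all above the ARv7 libraries for both genes. MT-ATP6, which forms part of the proton channel of ATP synthase, had 1113, 1021 and 1019 CPM in C4-2 ARv7 cells, against 1673, 1849.8 and 2029.8 CPM in C4-2 control cells (log2 fold change -0.82 ± 0.07 (SE), adjusted p = 4.36e-09). MT-ND4 (log2 fold change -0.71 ± 0.07) and MT-ND3 (-0.69 ± 0.07), both of complex I, also fell, again with no overlap.

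The subunits of complexes III and IV fell as well. MT-CYB, cytochrome b of complex III, had 3038, 2826 and 2818 CPM in C4-2 ARv7 cells, against 3771, 4102 and 4109 CPM in C4-2 control cells (log2 fold change -0.46 ± 0.06 (SE), adjusted p = 2.2e-06). MT-CO2, the subunit of complex IV that takes electrons from cytochrome c, had a log2 fold change of -0.60 ± 0.07, and MT-CO3 one of -0.51 ± 0.07. MT-CO1, which holds the oxygen-reducing site, had 11851, 11518 and 11417 CPM in C4-2 ARv7 cells, against 12895, 13956 and 16069 CPM in C4-2 control cells (log2 fold change -0.30 ± 0.07 (SE), adjusted p = 0.00149). MT-CO1 was the most abundant of the members by count, and its ARv7 libraries all lay under the lowest control library.

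MT-ND6, the 1 member on the opposite strand to the other 12, fell by 0.47 ± 0.07 (SE) on the log2 scale, within the range of the others. MT-ND4L (log2 fold change -0.32 ± 0.08) and MT-ND5 (-0.24 ± 0.06) had the smallest falls beside MT-CO1, and these 3 calls depended on the scaling or unit. With total counts and no scaling factor the adjusted p was 0.165 for MT-ND5 and 0.0693 for MT-ND4L, and with limma on log2(FPKM + 1) it was 0.0983 for MT-CO1. MT-ND5 was also lost without C4-2 ARv7 replicate 3 (adjusted p = 0.0519). The other 9 falls passed under every alternative that gave them a value.

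MT-ATP8, a small subunit of ATP synthase, was the member not called, with 3.57, 1.43 and 2.47 CPM in C4-2 ARv7 cells, against 2.69, 5.91 and 3.52 CPM in C4-2 control cells (log2 fold change -0.69 ± 0.33 (SE), adjusted p = 0.0764; 95% interval -1.33 to -0.05). Its groups overlapped, and it had only 108 counts in the ARv7 libraries and 168 in the control libraries together. MT-ATP8 is one of the genes of mitochondrial DNA that share bases with the next gene, so reads there can belong to either. The stretches below show the overlaps of more than 1 base with 20 bases on each side, from GENCODE release 29 on GRCh38, mitochondrial chromosome, plus strand, with the shared bases in capitals: 46 bases at positions 8527 to 8572 that end MT-ATP8 and begin MT-ATP6, and 7 bases at positions 10760 to 10766 that end MT-ND4L and begin MT-ND4.
MT-ATP8 and MT-ATP6: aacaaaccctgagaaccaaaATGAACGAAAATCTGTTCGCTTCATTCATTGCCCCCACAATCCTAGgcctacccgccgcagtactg
MT-ND4L and MT-ND4: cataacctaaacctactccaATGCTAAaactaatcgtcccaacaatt
MT-ATP6 and MT-CO3 also share 1 base, at position 9207. No source used here says how the counting treated reads from overlaps. Per length, MT-ATP8 stood at 12.7 ± 5.44 FPKM in C4-2 ARv7 cells and 18.5 ± 7.76 FPKM in C4-2 control cells. MT-ATP6 stood at 1623 ± 83.2 FPKM in C4-2 ARv7 cells and 2578 ± 187 FPKM in C4-2 control cells, although the genes overlap on 1 transcript. The values of MT-ATP8 are therefore uncertain.

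After ARv7 depletion in 22Rv-1 cells the mitochondrial members again fell, with a different order of sizes. Of 13, 9 fell, 1 rose and 3 were not called, where 48% of the 13459 genes tested were called, 24.1% as lower and 23.9% as higher. The median log2 fold change was -0.205, against 0.01 over all genes tested. All 9 falls and the rise passed under every alternative run.

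MT-CYB changed most, with 2169, 1968 and 1893 CPM in 22Rv-1 shARv7 cells, against 2947, 3232 and 3006 CPM in 22Rv-1 shcontrol cells (log2 fold change -0.61 ± 0.04 (SE), adjusted p = 1.19e-23). Every depleted library was below every control library. MT-CO1 had 12634, 12211 and 11971 CPM in 22Rv-1 shARv7 cells, against 15759.8, 15422 and 15228 CPM in 22Rv-1 shcontrol cells (log2 fold change -0.33 ± 0.03 (SE), adjusted p = 6.68e-17). MT-ND4L (-0.31 ± 0.06), MT-ND2 (-0.27 ± 0.04), MT-CO2 (-0.27 ± 0.03), MT-CO3 (-0.23 ± 0.03), MT-ND4 (-0.20 ± 0.03), MT-ND5 (-0.15 ± 0.03) and MT-ND1 (-0.14 ± 0.04) followed, each log2 fold change with its SE, and none of their groups overlapped.

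MT-ND6 rose, with 442, 464 and 459 CPM in 22Rv-1 shARv7 cells, against 366, 371 and 402 CPM in 22Rv-1 shcontrol cells (log2 fold change 0.26 ± 0.05 (SE), adjusted p = 1.19e-06), and its groups did not overlap. It lies on the minus strand of the mitochondrial chromosome between MT-ND5 and MT-CYB, both of which fell. No source used here says whether counting used the strand, so reads of the opposite strand cannot be told apart from its own. MT-ATP6 (-0.05 ± 0.04, 95% interval -0.12 to 0.03) and MT-ND3 (0.10 ± 0.05, 95% interval -0.01 to 0.20) were not called on the log2 scale, and neither was MT-ATP8 (0.57 ± 0.27, 95% interval 0.04 to 1.10). With total counts or FPKM, 2 or 3 mitochondrial members passed as higher, and without 22Rv-1 shcontrol replicate 3 it was 2.

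**Figure D2:**
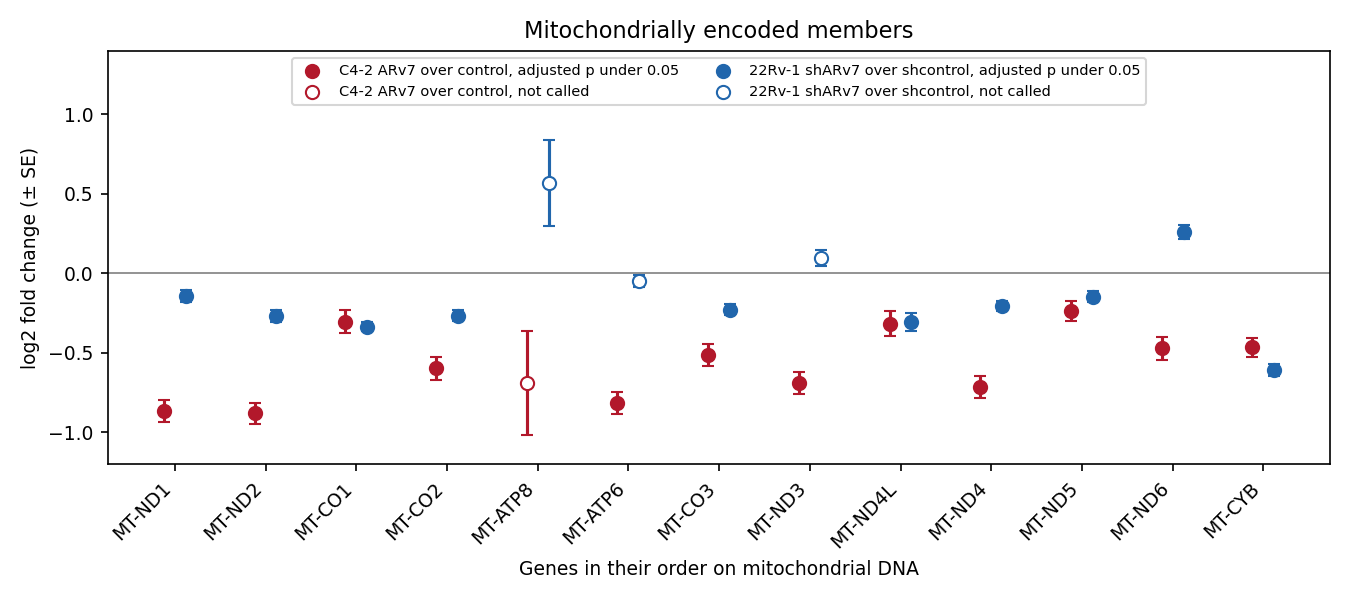
log2 fold change (± SE) of the 13 mitochondrial members, placed in their order on mitochondrial DNA, for C4-2 ARv7 over C4-2 control (red) and 22Rv-1 shARv7 over 22Rv-1 shcontrol (blue), filled where adjusted p was under 0.05. All C4-2 values lie below 0, from -0.88 at MT-ND2 to -0.24 at MT-ND5, and the 22Rv-1 values run from -0.61 at MT-CYB to 0.57 at MT-ATP8, which was not called.

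Nuclear members of C4-2 cells moved in both directions, more often down than up. With ARv7, 34 fell, 7 rose and 39 were not called of the 80 that passed the filter on low counts, so that 51.2% were called beside 59.1% of all genes tested. Their median log2 fold change was -0.16. The split depended on the scaling: under scaling by library totals alone, where the all-gene median lay at 0.152, 17 fell and 12 rose, and with limma on log2(FPKM + 1), 16 fell and 13 rose. The falls that passed under every alternative that gave them a value numbered 15, and the rises 4. Without C4-2 control replicate 3, 34 fell and 9 rose, and without C4-2 control replicate 2 or ARv7 replicate 3 the rises numbered 4.

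Complex III had the highest share of falls, 7 of 9, with 1 rise. UQCR11, a small subunit (chr19:1597169-1605473, minus strand, GRCh38), had 11.6, 9.97 and 11.1 CPM in C4-2 ARv7 cells, against 24.7, 24.0 and 32.1 CPM in C4-2 control cells (log2 fold change -1.31 ± 0.13 (SE), adjusted p = 4.8e-08). No other nuclear member that was called fell as far. UQCRB, which lies by the ubiquinone site, had 64.4, 63.8 and 56.9 CPM in C4-2 ARv7 cells, against 94.0, 103 and 109 CPM in C4-2 control cells (log2 fold change -0.73 ± 0.07 (SE), adjusted p = 8.11e-08). UQCRH, the hinge protein beside cytochrome c1, had 221, 234 and 229 CPM in C4-2 ARv7 cells, against 320.5, 329 and 343 CPM in C4-2 control cells (log2 fold change -0.54 ± 0.06 (SE), adjusted p = 1.15e-07). None of these 3 overlapped between groups. The core protein UQCRC1 fell by 0.31 ± 0.07 (SE) on the log2 scale, a call lost with limma on log2(FPKM + 1) (adjusted p = 0.0639). Its partner UQCRC2 was higher by 0.14 ± 0.06 (adjusted p = 0.0339), a call lost without C4-2 control replicate 2, ARv7 replicate 2 or ARv7 replicate 3 (adjusted p = 0.130 to 0.143) and without the filter on low counts (adjusted p = 0.0583). UQCRHL, a close copy of UQCRH, had under 9 CPM, and reads of the copies may be shared between them.

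Complex IV had 7 falls and no rise among 14 tested. COX6B1, a subunit at the interface of the dimer (chr19:35648323-35658782, plus strand), had 77.6, 80.7 and 81.0 CPM in C4-2 ARv7 cells, against 123, 125 and 128 CPM in C4-2 control cells (log2 fold change -0.65 ± 0.06 (SE), adjusted p = 2.7e-08). The groups stood well apart. COX4I1, the common form of the largest nuclear subunit, had 216, 219.6 and 214 CPM in C4-2 ARv7 cells, against 265, 295 and 323 CPM in C4-2 control cells (log2 fold change -0.44 ± 0.07 (SE), adjusted p = 1.03e-05). NDUFA4L2, known as a hypoxia-induced relative of NDUFA4 (chr12:57234903-57240715, minus strand), had 13.8, 17.2 and 16.9 CPM in C4-2 ARv7 cells, against 23.1, 27.0 and 27.7 CPM in C4-2 control cells (log2 fold change -0.70 ± 0.12 (SE), adjusted p = 3.34e-05). All 3 fell under every alternative run. NDUFA4 itself (-0.25 ± 0.06), COX7B (-0.27 ± 0.07), COX5A (-0.26 ± 0.07) and COX7C (-0.17 ± 0.07) had small falls on the log2 scale, none of which passed with total counts (adjusted p = 0.136 to 0.731). COX5B, COX6A1, COX6C, COX7A2, COX7A2L, COX7B2 and COX8A were not called. COX7A1, COX4I2, COX6A2, COX6B2 and COX8C did not pass the filter on low counts, and COX4I2 and COX6A2 had 0 counts in all 12 libraries.

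Complex I had 14 falls and 4 rises among 36 tested. NDUFB9, an accessory subunit of the membrane arm, had 31.9, 33.1 and 32.2 CPM in C4-2 ARv7 cells, against 46.1, 49.5 and 58.0 CPM in C4-2 control cells (log2 fold change -0.66 ± 0.09 (SE), adjusted p = 3.32e-06). NDUFA11, another membrane accessory subunit, was at a low level, with 4.87, 6.76 and 6.25 CPM in C4-2 ARv7 cells, against 9.77, 10.96 and 10.2 CPM in C4-2 control cells (log2 fold change -0.79 ± 0.16 (SE), adjusted p = 0.000361). NDUFS3, a core subunit of the peripheral arm, fell by 0.34 ± 0.07 (SE), as did NDUFA8. Among the 7 nuclear core subunits 2 fell and 1 rose. The 1 that rose was NDUFV1, which carries the NADH-binding site and its flavin, with 242, 242 and 241 CPM in C4-2 ARv7 cells, against 186, 204 and 216 CPM in C4-2 control cells (log2 fold change 0.26 ± 0.06 (SE), adjusted p = 0.00131). NDUFB5 was higher by 0.20 ± 0.07 on the log2 scale, a call lost without C4-2 control replicate 2 (adjusted p = 0.0553) or ARv7 replicate 3 (adjusted p = 0.132). NDUFA10 was higher by 0.15 ± 0.06 and only just passed (adjusted p = 0.0463). That call was lost with DESeq2's size factors (adjusted p = 0.0544), with DESeq2's test (adjusted p = 0.0688), without the filter on low counts (adjusted p = 0.0732) and without any 1 of the libraries other than C4-2 control replicate 3 (adjusted p = 0.0507 to 0.246). NDUFB8 also passed as higher, but at 1.70 to 1.84 CPM in C4-2 ARv7 cells and 0.783 to 0.850 CPM in C4-2 control cells.

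In complex II, SDHC, a membrane anchor, had 129, 133 and 126 CPM in C4-2 ARv7 cells, against 102, 106 and 116 CPM in C4-2 control cells (log2 fold change 0.26 ± 0.06 (SE), adjusted p = 0.00161). SDHA, the flavoprotein that oxidises succinate, fell at 2.45 ± 0.772 CPM in C4-2 ARv7 cells and 4.84 ± 0.277 CPM in C4-2 control cells (SD, n = 3 each; log2 fold change -0.99 ± 0.26 (SE), adjusted p = 0.00256). SDHA was listed at 0.294 ± 0.0926 FPKM in C4-2 ARv7 cells and 0.525 ± 0.0396 FPKM in C4-2 control cells, and SDHB, the iron-sulfur subunit, at 26.2 ± 1.19 FPKM in C4-2 ARv7 cells and 26.4 ± 2.47 FPKM in C4-2 control cells, although the subunits are built into the complex in equal number. FPKM divides by the deposited gene length, which was 8765 bases for SDHA and 2324 for SDHB. SDHA has 3 annotated pseudogenes, and no source used here says how reads shared with them were counted.

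ATP synthase had 5 falls and 1 rise among 17 tested. ATP5MG, subunit g of the membrane part, had 12.3, 12.2 and 13.6 CPM in C4-2 ARv7 cells, against 24.9, 28.6 and 25.8 CPM in C4-2 control cells (log2 fold change -1.06 ± 0.11 (SE), adjusted p = 1.01e-07). ATP5IF1, the protein that blocks the enzyme when it runs backwards, had 155, 154 and 149 CPM in C4-2 ARv7 cells, against 228, 234 and 238 CPM in C4-2 control cells (log2 fold change -0.61 ± 0.06 (SE), adjusted p = 1.75e-08). Both were lower in every ARv7 library. ATP5F1E, the epsilon subunit, fell by 0.32 ± 0.07 (SE) on the log2 scale. ATP5MC2, 1 of 3 genes for the same c subunit of the rotor (chr12:53632726-53677408, minus strand), rose, with 109, 111 and 112 CPM in C4-2 ARv7 cells, against 70.7, 79.1 and 96.0 CPM in C4-2 control cells (log2 fold change 0.44 ± 0.08 (SE), adjusted p = 0.000188). Its sister genes ATP5MC1 (0.11 ± 0.09) and ATP5MC3 (-0.09 ± 0.07) were not called.

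After ARv7 depletion in 22Rv-1 cells the nuclear members leaned the other way. Of 82 tested, 25 rose, 7 fell and 50 were not called, so that 39% were called beside 48% of all genes tested. Their median log2 fold change was 0.12. With total counts the split was 31 rises and 5 falls. The calls that passed under every alternative run were 20 rises and 4 falls.

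NDUFB4, an accessory subunit of complex I (chr3:120596328-120602507, plus strand), changed most, with 345, 339 and 345 CPM in 22Rv-1 shARv7 cells, against 211, 220.1 and 228 CPM in 22Rv-1 shcontrol cells (log2 fold change 0.64 ± 0.05 (SE), adjusted p = 5.81e-20). NDUFB4 has 12 annotated pseudogenes, so its count may include or lose shared reads. NDUFB5 had 142, 127 and 133 CPM in 22Rv-1 shARv7 cells, against 108, 105 and 112 CPM in 22Rv-1 shcontrol cells (log2 fold change 0.31 ± 0.06 (SE), adjusted p = 4.5e-06). The groups of neither gene overlapped. In all, 8 of 36 complex I members rose, NDUFB3 (0.51 ± 0.12) and NDUFV1 (0.20 ± 0.05) among them, and 4 fell. NDUFA13, also known as GRIM19, had 8.97, 10.8 and 11.3 CPM in 22Rv-1 shARv7 cells, against 15.1, 14.1 and 13.8 CPM in 22Rv-1 shcontrol cells (log2 fold change -0.47 ± 0.13 (SE), adjusted p = 0.00218). NDUFB11 (-0.22 ± 0.07), NDUFA12 (-0.22 ± 0.09) and NDUFA10 (-0.13 ± 0.05) had smaller falls, each lost when 1 library was left out: without 22Rv-1 shARv7 replicate 3 the adjusted p was 0.116 for NDUFB11 and 0.115 for NDUFA12, and without 22Rv-1 shARv7 replicate 2 it was 0.107 for NDUFA10. NDUFA12 and NDUFA10 were also lost without 22Rv-1 shcontrol replicate 1 or 2 and with total counts (adjusted p = 0.0996 for NDUFA12 and 0.172 for NDUFA10), and NDUFA12 with DESeq2's test (adjusted p = 0.0505) and without 22Rv-1 shARv7 replicate 2 (adjusted p = 0.105).

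Complex IV had 7 rises and 1 fall among 14 tested. NDUFA4 had 179, 169 and 171 CPM in 22Rv-1 shARv7 cells, against 128, 133 and 128 CPM in 22Rv-1 shcontrol cells (log2 fold change 0.41 ± 0.05 (SE), adjusted p = 5.52e-10). COX7A2, the widely used form of subunit 7A, had 81.1, 75.3 and 80.7 CPM in 22Rv-1 shARv7 cells, against 63.1, 53.8 and 55.3 CPM in 22Rv-1 shcontrol cells (log2 fold change 0.46 ± 0.07 (SE), adjusted p = 2.98e-08). Depleted libraries were above control libraries for both. COX7A2L (0.34 ± 0.08), COX7C (0.33 ± 0.05), COX6B1 (0.31 ± 0.07), COX5A (0.28 ± 0.07) and COX7B (0.28 ± 0.07) also rose on the log2 scale. NDUFA4L2 was the 1 that fell, with 22.2, 21.0 and 22.2 CPM in 22Rv-1 shARv7 cells, against 31.4, 34.3 and 31.0 CPM in 22Rv-1 shcontrol cells (log2 fold change -0.56 ± 0.09 (SE), adjusted p = 5.37e-07).

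In complex III, UQCRFS1, the Rieske iron-sulfur protein, had 110.1, 103 and 100.2 CPM in 22Rv-1 shARv7 cells, against 87.4, 82.4 and 86.1 CPM in 22Rv-1 shcontrol cells (log2 fold change 0.29 ± 0.06 (SE), adjusted p = 4.25e-05). UQCRC2 rose by 0.22 ± 0.05 and UQCRH by 0.16 ± 0.05, the second lost without 22Rv-1 shARv7 replicate 1 (adjusted p = 0.0586), while UQCRC1 fell by 0.20 ± 0.05 (SE). In complex II, SDHD was the 1 member called, at 0.22 ± 0.09, and its groups overlapped. The SDHD call was lost with DESeq2's test (adjusted p = 0.0948), in 1 fit of all 12 libraries (adjusted p = 0.0862) and without 22Rv-1 shcontrol replicate 1 or 2 or shARv7 replicate 1 or 3 (adjusted p = 0.0508 to 0.365), and without shcontrol replicate 2 its log2 fold change was 0.115.

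ATP synthase had 6 rises and 1 fall among 19 tested. All 3 genes of the c subunit rose. ATP5MC3 had 80.0, 75.5 and 78.4 CPM in 22Rv-1 shARv7 cells, against 51.6, 57.7 and 52.0 CPM in 22Rv-1 shcontrol cells (log2 fold change 0.54 ± 0.07 (SE), adjusted p = 3.05e-10). ATP5MC1 rose by 0.30 ± 0.07 and ATP5MC2 by 0.25 ± 0.06 (log2 fold change ± SE), as did ATP5F1C, the gamma subunit of the rotor stalk, by 0.27 ± 0.05. ATP5MF, subunit f of the membrane part, was the 1 that fell, with 34.4, 39.1 and 38.6 CPM in 22Rv-1 shARv7 cells, against 44.9, 46.5 and 48.2 CPM in 22Rv-1 shcontrol cells (log2 fold change -0.32 ± 0.08 (SE), adjusted p = 0.000654).

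**Figure D3:**
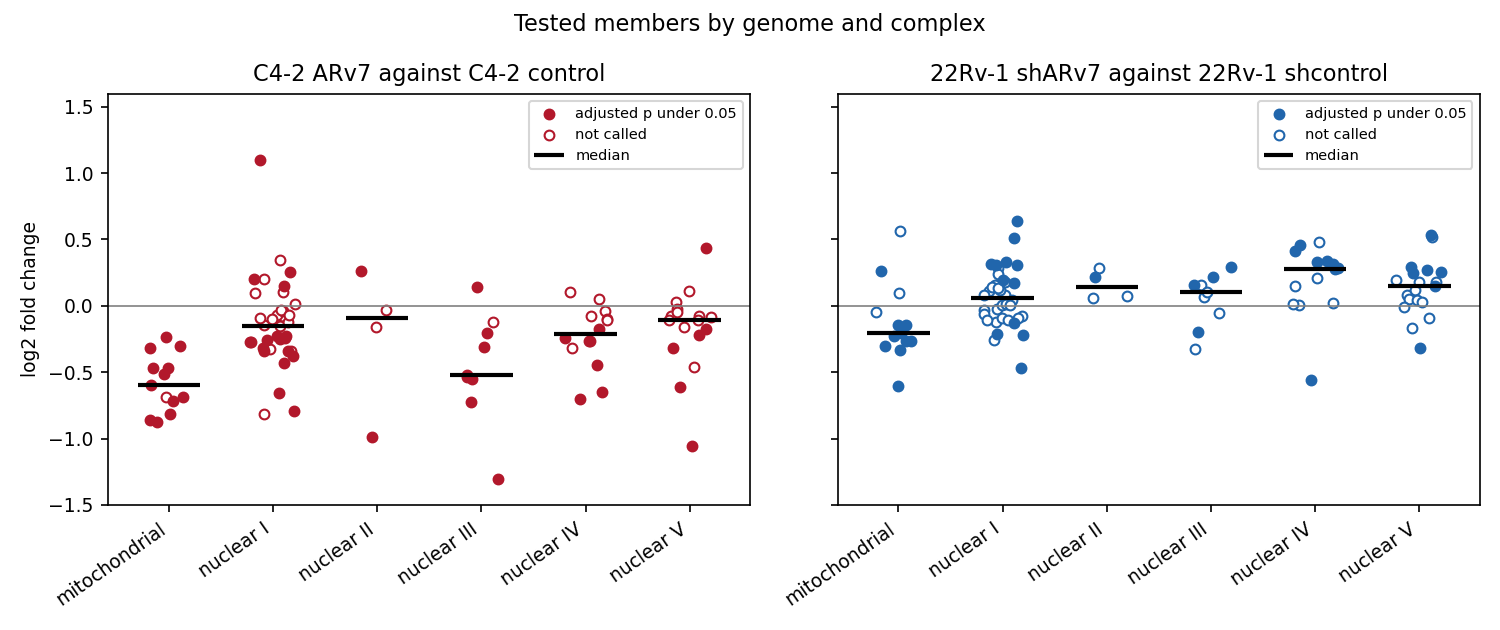
log2 fold change of each tested member (points, filled where adjusted p was under 0.05) and the median (bars), by genome and complex, for C4-2 ARv7 against C4-2 control (left, 13 mitochondrial and 80 nuclear members) and 22Rv-1 shARv7 against 22Rv-1 shcontrol (right, 13 and 82). The mitochondrial median is -0.60 in the left panel and -0.205 in the right, and the nuclear complex IV median is -0.21 in the left panel and 0.28 in the right.

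Set side by side, the members did not simply reverse between gain and loss of ARv7. The within-line comparisons share no library. Among mitochondrial members, 9 fell in both, 1 (MT-ND6) fell with added ARv7 and rose on depletion, and MT-ND3 and MT-ATP6 fell in C4-2 and were not called in 22Rv-1. Among nuclear members, 8 fell with added ARv7 and rose on depletion (NDUFB4, UQCRFS1, UQCRH, COX5A, COX6B1, COX7B, COX7C and NDUFA4), 4 fell in both (NDUFA12, NDUFB11, UQCRC1 and NDUFA4L2), 4 rose in both (NDUFB5, NDUFV1, UQCRC2 and ATP5MC2) and NDUFA10 rose with ARv7 and fell on depletion. Another 23 were called in neither. Called in C4-2 alone were 22 that fell and 2 that rose, and in 22Rv-1 alone 13 that rose and 2 that fell. Of all genes tested, 59.1% were called in C4-2 and 48% in 22Rv-1. The share of all genes called in both lines, by direction, was not computed, so these counts carry no comparison with other genes. These counts rest on the scaling in C4-2. Of the 8 falls that turned to rises, those of COX6B1 and UQCRH passed under every alternative in C4-2, and the other 6 were lost with total counts (adjusted p = 0.136 to 0.731) and with limma on log2(FPKM + 1) (adjusted p = 0.115 to 0.716). For NDUFB4 the C4-2 log2 fold change with total counts was -0.105 (adjusted p = 0.157), and for UQCRFS1 it was -0.059 (adjusted p = 0.398). The C4-2 falls of NDUFA12 (adjusted p = 0.136) and NDUFB11 (adjusted p = 0.379) were lost with total counts as well. Both were also lost with limma on log2(FPKM + 1) (adjusted p = 0.0791 and 0.356). Leaving out single libraries lost them too: C4-2 ARv7 replicate 1 for NDUFA12 (adjusted p = 0.0621) and replicate 2 for NDUFB11 (adjusted p = 0.11).

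A fit of all 12 libraries tested for each gene whether the change with added ARv7 differed from the change that depletion takes away. The difference is the sum of the log2 fold changes of gain and depletion, so that it is 0 where one mirrors the other. It was below 0 past the threshold for 12 of 13 mitochondrial members and above it for 0, beside 50.7% of all 14235 genes called, 23.3% lower and 27.4% higher. MT-ND2 (-1.14 ± 0.08 (SE), adjusted p = 5.3e-15) and MT-CYB (-1.06 ± 0.08 (SE), adjusted p = 7.13e-14) had the largest values. MT-ND6 passed narrowly (-0.20 ± 0.09 (SE), adjusted p = 0.0479), a call lost with total counts (adjusted p = 0.903). Of 83 nuclear members, 22 were lower and 14 higher, or 12 lower and 27 higher with total counts, so the nuclear split turned with the scaling. NDUFA4L2 (-1.26 ± 0.15 (SE), adjusted p = 5.63e-09) was far below 0 and ATP5MC2 (0.69 ± 0.10 (SE), adjusted p = 9.07e-07) above it. For COX7B, whose changes were -0.27 ± 0.07 with ARv7 and 0.28 ± 0.07 on depletion, the difference was 0.02 ± 0.09 (SE), adjusted p = 0.913, and for COX5A it was 0.03 ± 0.10 (SE), adjusted p = 0.855; a p that misses the threshold does not show that the changes mirror each other exactly. COX6B1 (-0.33 ± 0.09 (SE), adjusted p = 0.00327) and UQCRH (-0.37 ± 0.07 (SE), adjusted p = 7.41e-05) changed more on gain than on depletion, and NDUFB4 (0.39 ± 0.08 (SE), adjusted p = 0.000156) less, although the COX6B1 call was lost with total counts (adjusted p = 0.195).

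**Figure D4:**
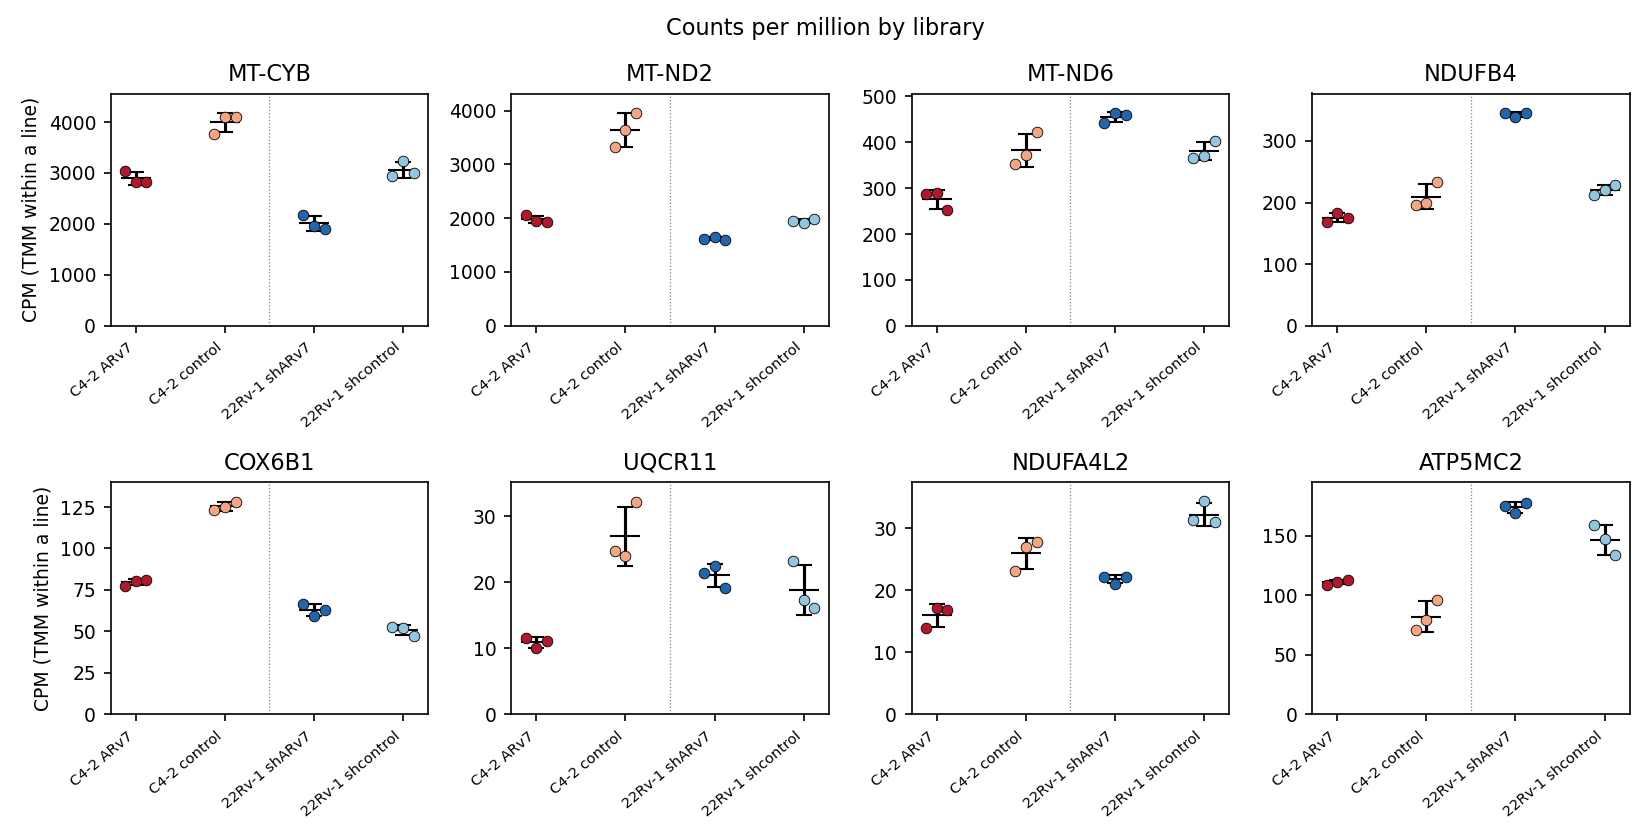
CPM by library (points, TMM within a line) with group mean and SD (bars, n = 3 each) for 8 members, C4-2 groups left and 22Rv-1 groups right of the dotted line in each panel. MT-CYB, MT-ND2 and NDUFA4L2 are lower with ARv7 added and lower with ARv7 depleted, MT-ND6, NDUFB4 and COX6B1 are lower with ARv7 added and higher with ARv7 depleted (the NDUFB4 call in C4-2 was lost with total counts, adjusted p = 0.157), ATP5MC2 is higher in both, and UQCR11 is lower with ARv7 added, with overlapping groups in 22Rv-1.

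Some nuclear members share short promoter sequences known to bind regulators of respiratory genes. Promoters, taken as 250 bases before to 50 after the start from RefSeq on GRCh38.p14, were found for 68 of 89 nuclear members. For members 1 promoter per gene was used, the first listed, which need not lie at the outer end of the gene. The shares over all promoters, in contrast, count every entry, including any alternative promoters of a gene. GCGCATGCG, the site of NRF1, lay on either strand in 10 of them (14.7%), beside 1.92% of all 35116 promoters. CCGGAAGT, a site of ETS factors such as GABP, lay in 9 (13.2%, beside 4.14%), and AAGATGGCG, a site of YY1, in 8 (11.8%, beside 1.75%). At least 1 of these motifs, none of which contains another, was present in 24 (35.3%, beside 7.33%). In C4-2, 6 of the 23 tested members with a motif fell and 1 rose, and 20 of the 40 without one fell and 4 rose. After depletion in 22Rv-1, 6 of 24 with a motif rose and 2 fell, and 16 of 39 without one rose and 3 fell. These counts are a description, and no match says only that those letters are not in the window.

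The 250 bases before the start are given for 3 members whose values stand out above, chosen after their values were seen: NDUFB4, which rose most on depletion, UQCR11, which fell most among called nuclear members with ARv7, and ATP5MC2, which rose in both. Each runs 5′ to 3′ on the strand of the gene, with the motif in capitals, the NRF1 motif in NDUFB4 (on both strands, offset by 1 base) and in ATP5MC2 (there as its reverse complement) and the ETS motif in UQCR11. For ATP5MC2 the start used lies inside the span of the gene given above, so its stretch does not precede the outermost start of the gene.
NDUFB4, chr3:120596086-120596335, plus strand: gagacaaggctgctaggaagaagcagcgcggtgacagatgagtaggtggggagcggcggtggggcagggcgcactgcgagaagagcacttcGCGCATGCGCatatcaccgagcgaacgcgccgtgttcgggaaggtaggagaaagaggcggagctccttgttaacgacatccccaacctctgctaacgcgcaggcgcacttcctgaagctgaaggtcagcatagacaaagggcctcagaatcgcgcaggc
UQCR11, chr19:1605463-1605712, minus strand: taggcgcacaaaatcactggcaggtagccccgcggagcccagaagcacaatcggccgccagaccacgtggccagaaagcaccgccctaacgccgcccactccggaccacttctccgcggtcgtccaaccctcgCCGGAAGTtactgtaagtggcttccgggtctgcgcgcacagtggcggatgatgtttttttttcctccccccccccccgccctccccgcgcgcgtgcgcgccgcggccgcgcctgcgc
ATP5MC2, chr12:53676084-53676333, minus strand: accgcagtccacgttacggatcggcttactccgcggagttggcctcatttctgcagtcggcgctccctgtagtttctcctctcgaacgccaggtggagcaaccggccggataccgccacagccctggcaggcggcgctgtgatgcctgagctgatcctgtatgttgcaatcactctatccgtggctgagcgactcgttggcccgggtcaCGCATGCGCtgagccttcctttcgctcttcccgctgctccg

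More members, and more of all genes, were called between the control cells of the lines. The 22Rv-1 shcontrol cells had 49 nuclear members lower and 20 higher than C4-2 control cells of 83 tested, with 10 mitochondrial members lower and 1 higher of 13, where 83.4% of 14235 genes tested were called, 40.9% lower and 42.5% higher. This comparison shares its controls with the others, and its CPM are scaled over all 12 libraries. The nuclear median log2 fold change was -0.55 and the mitochondrial median -0.48, against 0.04 over all genes tested. The mitochondrial to nuclear ratio of the control groups, given above, overlapped between the lines.

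COX7A2L had 43.1, 38.6 and 43.4 CPM in 22Rv-1 shcontrol cells, against 148, 154 and 176 CPM in C4-2 control cells (log2 fold change -1.93 ± 0.07 (SE), adjusted p = 2.96e-24). ATP5MC3 had 51.9 ± 3.32 CPM in 22Rv-1 shcontrol cells and 135 ± 13.9 CPM in C4-2 control cells and COX6B1 48.9 ± 2.87 CPM in 22Rv-1 shcontrol cells and 129.6 ± 3.04 CPM in C4-2 control cells (SD, n = 3 each), with log2 fold changes of -1.38 ± 0.07 and -1.41 ± 0.07. NDUFS5, an accessory subunit of complex I (-1.23 ± 0.06), UQCRH (-0.97 ± 0.05), COX7C (-1.15 ± 0.06) and SDHD (-0.71 ± 0.10) were lower as well. In the other direction, ATP5MF had 43.4, 44.9 and 46.4 CPM in 22Rv-1 shcontrol cells, against 14.1, 15.7 and 14.1 CPM in C4-2 control cells (log2 fold change 1.62 ± 0.10 (SE), adjusted p = 1.62e-17), and NDUFA10 had 223 ± 9.67 CPM in 22Rv-1 shcontrol cells and 108 ± 2.89 CPM in C4-2 control cells (log2 fold change 1.05 ± 0.06 (SE), adjusted p = 5.09e-19). NDUFA9 (1.67 ± 0.17) and NDUFA13 (1.76 ± 0.17), both of complex I, were also higher. ATP5ME, subunit e of ATP synthase, and the readthrough gene ATP5MF-PTCD1 passed as higher at few counts: ATP5ME had 34 counts in the 22Rv-1 shcontrol libraries and 6 in the C4-2 control libraries, and ATP5MF-PTCD1 had 46 in 22Rv-1 shcontrol and 2 in C4-2 control. The ATP5MC2 gene was higher in 22Rv-1 (0.74 ± 0.08), unlike its sisters ATP5MC3 and ATP5MC1 (0.03 ± 0.08).

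COX7B2, a relative of COX7B known from testis, had 0 counts in the 22Rv-1 shcontrol libraries and 67 in the C4-2 control libraries, at least 21.5-fold lower when a floor of 3 counts over the group is used. It had 64 counts in C4-2 ARv7 cells and 0 in 22Rv-1 shARv7 cells. COX7A1, known from muscle and heart, averaged 0.831 ± 0.323 CPM in 22Rv-1 shcontrol cells and 0.0744 ± 0.0729 CPM in C4-2 control cells (SD, n = 3 each), a rise at few counts that passed the test (adjusted p = 0.000702 by edgeR). Among mitochondrial members, MT-ND3 (-1.22 ± 0.06) and MT-ND2 (-0.996 ± 0.06) were lowest in 22Rv-1, and MT-ND5 (0.14 ± 0.05) was the 1 that was higher, a call lost without C4-2 control replicate 1 (adjusted p = 0.0527) or replicate 2 (adjusted p = 0.076). Without C4-2 control replicate 3, 2 mitochondrial members were higher. Of the 10 that were lower, 7 passed under every alternative that gave them a value. MT-CO3 (adjusted p = 0.326) and MT-ND4L (adjusted p = 0.322) were lost with total counts. MT-ATP8 was lost without C4-2 control replicate 2 (adjusted p = 0.153).

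Per length, the mitochondrial members stood far above the nuclear ones. The deposited gene lengths by which FPKM divides were 207 bases for MT-ATP8 to 1812 for MT-ND5. Some nuclear lengths were far longer, such as 19359 bases for NDUFA10 and 12600 for UQCRB, where the length equals the whole span of the gene. The part of these lengths in the gap between the genomes was not tested. Their median was 1623 FPKM in C4-2 ARv7 cells, 2578 in C4-2 control cells, 1581 in 22Rv-1 shARv7 cells and 1762 in 22Rv-1 shcontrol cells, and the nuclear median was 15.7 FPKM in C4-2 ARv7 cells, 16.4 in C4-2 control cells, 14.2 in 22Rv-1 shARv7 cells and 12.7 in 22Rv-1 shcontrol cells. MT-CO1 led with 7908 ± 153 FPKM in C4-2 ARv7 cells and 8796 ± 769 FPKM in C4-2 control cells, where MT-CO2 was within the spread of MT-CO1 at 8653 ± 702 FPKM. The highest nuclear member was ATP5F1B, the catalytic beta subunit, at 589.5 ± 4.80 FPKM in C4-2 ARv7 cells, 522 ± 36.3 FPKM in C4-2 control cells, 769 ± 6.77 FPKM in 22Rv-1 shARv7 cells and 702 ± 27.6 FPKM in 22Rv-1 shcontrol cells (SD, n = 3 each). In each group 12 of 13 mitochondrial members and 5 to 10 of 89 nuclear members reached 100 FPKM.

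Some subunits needed in every assembled complex were listed at very low levels. In C4-2 control cells NDUFV2, a core subunit of complex I, stood at 1.44 ± 0.447 FPKM, ATP5PO, the stalk subunit known as OSCP, at 1.00 ± 0.215 FPKM, and COX8A at 5.88 ± 0.245 FPKM. In GENCODE release 29, exons of other genes share 28.4% of the exon bases of NDUFV2, 25.4% of those of ATP5PO, 34.5% of those of COX8A and 48.5% of those of NDUFB8. Among members with large changes above, the share was 10.9% for UQCR11, 12.5% for ATP5MG, 12.1% for NDUFA11, and 21.0% for NDUFB9 and NDUFA13. It was 0% for COX6B1 and ATP5IF1. The part of such sharing in these levels and changes was not tested, and fold changes of genes with such sharing are uncertain. The 12 mitochondrial members other than MT-ATP8 each have 22 to 45 annotated nuclear pseudogenes, which can share their reads.

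Genes that act on the subunits moved in both directions in both lines. Beside this and the lists that follow, 59.1% of all genes tested were called in C4-2, 29.6% as higher and 29.5% as lower. In 22Rv-1 the share was 48%, with 23.9% higher and 24.1% lower. Of 16 genes of mitochondrial DNA transcription and replication, 7 rose and 2 fell with ARv7 in C4-2, and 7 rose and 3 fell on depletion in 22Rv-1. TFB2M, the transcription factor that opens mitochondrial promoters, rose in both, at 56.0 ± 4.35 CPM in C4-2 ARv7 cells and 39.6 ± 3.17 CPM in C4-2 control cells (log2 fold change 0.50, adjusted p = 4.51e-05), and at 90.6 ± 2.06 CPM in 22Rv-1 shARv7 cells and 62.1 ± 0.838 CPM in 22Rv-1 shcontrol cells (log2 fold change 0.54, adjusted p = 2.32e-11). POLRMT, the mitochondrial RNA polymerase, fell in C4-2, at 96.9 ± 5.22 CPM in C4-2 ARv7 cells and 134 ± 17.5 CPM in C4-2 control cells (log2 fold change -0.47, adjusted p = 5.56e-05). SSBP1, the mitochondrial single-strand binding protein, rose there, at 93.9 ± 2.36 CPM in C4-2 ARv7 cells and 60.8 ± 3.64 CPM in C4-2 control cells (log2 fold change 0.63, adjusted p = 2.16e-07).

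Of 20 genes of mitochondrial RNA processing and stability, 3 rose and 8 fell in C4-2, and 5 rose and 2 fell on depletion in 22Rv-1. FASTKD5, needed to mature messages that no tRNA separates, fell with ARv7, at 29.6 ± 2.46 CPM in C4-2 ARv7 cells and 42.2 ± 4.16 CPM in C4-2 control cells (log2 fold change -0.51, adjusted p = 0.000105), and rose on depletion, at 35.5 ± 1.50 CPM in 22Rv-1 shARv7 cells and 26.6 ± 1.22 CPM in 22Rv-1 shcontrol cells (log2 fold change 0.41, adjusted p = 6.49e-05). TRMT10C, a subunit of mitochondrial RNase P, rose on depletion, at 74.7 ± 3.56 CPM in 22Rv-1 shARv7 cells and 56.7 ± 3.61 CPM in 22Rv-1 shcontrol cells (log2 fold change 0.40, adjusted p = 1.1e-06). Of 8 regulators of nuclear respiratory genes, 1 rose and 4 fell in C4-2, NRF1 among them, at 24.0 ± 2.04 CPM in C4-2 ARv7 cells and 31.9 ± 2.99 CPM in C4-2 control cells (log2 fold change -0.41, adjusted p = 0.00161). In 22Rv-1, 0 of 7 tested rose and 3 fell, PPARGC1B among them, at 49.1 ± 1.37 CPM in 22Rv-1 shARv7 cells and 66.9 ± 4.98 CPM in 22Rv-1 shcontrol cells (log2 fold change -0.44, adjusted p = 2.32e-07).

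Assembly factors were likewise mixed, beside the shares of all genes given above. For complex I, 4 of 16 rose and 4 fell in C4-2, and 2 rose and 5 fell on depletion in 22Rv-1. NDUFAF4 fell with ARv7, at 25.0 ± 0.535 CPM in C4-2 ARv7 cells and 53.8 ± 6.39 CPM in C4-2 control cells (log2 fold change -1.10, adjusted p = 4.26e-09), and ECSIT fell in both, at 53.2 ± 1.44 CPM in C4-2 ARv7 cells and 67.6 ± 7.20 CPM in C4-2 control cells (log2 fold change -0.35, adjusted p = 0.000996), and at 59.4 ± 3.00 CPM in 22Rv-1 shARv7 cells and 77.9 ± 5.32 CPM in 22Rv-1 shcontrol cells (log2 fold change -0.39, adjusted p = 1.3e-06). Complex III factors gave 1 rise and 3 falls of 6 in each line, UQCC2 falling in both (log2 fold change -0.49 and -0.37). Complex IV factors gave 2 rises and 2 falls of 21 in C4-2 and 6 rises and 3 falls in 22Rv-1. For complex II, 1 of 4 factors rose and 2 fell in C4-2, and 1 rose on depletion. Complex V factors gave 2 falls of 5 in C4-2 and 1 in 22Rv-1. CYCS, the cytochrome c gene that the symbols above leave out, fell in both, at 372 ± 23.0 CPM in C4-2 ARv7 cells and 577 ± 31.9 CPM in C4-2 control cells (log2 fold change -0.63, adjusted p = 3.93e-08), and at 360.2 ± 7.46 CPM in 22Rv-1 shARv7 cells and 442 ± 27.6 CPM in 22Rv-1 shcontrol cells (log2 fold change -0.29, adjusted p = 1.04e-07).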

How the data were processed

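RNA sequencing of 12 libraries in 4 groups gave a deposited table of raw counts per gene with no normalization, and of FPKM, which the authors computed from those counts, the gene length and the library total (FPKM recomputed from the counts and the deposited gene length differed by at most 1.81e-05%). Of 19974 lines, 1 without a gene identifier was left out. Reads were trimmed with Cutadapt 2.7, per the labels' protocols. The submitters' processing notes name hg18, but all 102 members were found by identifier in GENCODE release 29 on GRCh38 with start or end within 10000 bp, so coordinates are GRCh38 as the table has them. Not given in the sources used here were the aligner, the counter and whether strand was used.

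Counts were tested with edgeR 4.0.16 (R 4.3.3): filterByExpr by group, TMM, quasi-likelihood F-test, Benjamini-Hochberg adjusted p under 0.05 over all genes, within each line for ARv7 and over all 12 libraries for the lines and for the difference between them. SE is the size of the log2 fold change over the root of F, and intervals are 95%. The pipeline was tested on simulated data. Alternatives were DESeq2 1.42.0 and its size factors, total counts, TMM without ribosomal protein and mitochondrially encoded genes, no filter, a replicate block, 1 fit of all libraries, limma 3.58.1 with a trend on log2(FPKM + 1) and log2(FPKM + 0.1) at a mean of at least 1 FPKM, and leaving out each library. A count of 3 in a library is 0.204 to 0.244 CPM, and floors cover counting error only.

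Named were all mitochondrial members, for each comparison up to 4 nuclear members per complex with the smallest adjusted p, those against the direction of most calls of their complex, tissue isoforms, and up to 3 genes per other list. In the comparison of the lines only part of these are named. Members and lists were chosen with earlier results of these data known.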

Additional observations from a re-analysis of the deposited data

Results flagged for a closer look

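For 17 members the change in C4-2 and the change in 22Rv-1 passed the threshold in the same direction (edgeR). Of all genes tested, 59.1% were called in C4-2 and 48% in 22Rv-1. The share of all genes called in the same direction in both was not computed, so the 17 carry no comparison with other genes. The log2 difference between the lines, added ARv7 minus the change that depletion takes away, is the sum of the changes in C4-2 and 22Rv-1. It is therefore far from 0 by construction for members chosen in this way, and its passing the test adds no support. Of mitochondrial members, it was -1.0 for MT-ND1, -1.14 for MT-ND2, -0.91 for MT-ND4, -0.62 for MT-ND4L, -0.37 for MT-ND5, -1.06 for MT-CYB, -0.63 for MT-CO1, -0.85 for MT-CO2 and -0.73 for MT-CO3, all lower in both lines. Of nuclear members lower in both lines, it was -0.53 for NDUFA12, -0.44 for NDUFB11, -0.50 for UQCRC1 and -1.26 for NDUFA4L2. Of nuclear members higher in both, it was 0.52 for NDUFB5, 0.46 for NDUFV1, 0.37 for UQCRC2 and 0.69 for ATP5MC2. In C4-2 the calls of MT-ND4L, MT-ND5, MT-CO1, NDUFA12, NDUFB11, UQCRC1, UQCRC2 and NDUFB5 did not pass under every alternative. Many of the settings that lost them are given above. In addition, MT-ND4L was lost with limma on log2(FPKM + 1) (adjusted p = 0.0839) and UQCRC2 with the replicate block (adjusted p = 0.0818). The difference of NDUFB11 was lost with limma at both pseudocounts (adjusted p = 0.0528 and 0.0586). In 22Rv-1 the calls of NDUFA12 and NDUFB11 did not pass under every alternative either. The groups have 3 libraries each, too few for a test of single outlying libraries.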

How the results depend on the processing

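Over the results for single members, 6223 values under alternatives kept direction and side of the threshold, 250 lost the call, 133 gained it and 6 reversed. The counts of mitochondrial members that fell stayed at 9 to 13 in C4-2 and at 9 in 22Rv-1 under all alternatives run, 10 with total counts in C4-2. Nuclear rises in C4-2 were 7, but 12 with total counts and 13 with limma at either pseudocount, and falls were 34, but 17 and 16. In 22Rv-1, 1 mitochondrial member rose, but 2 with total counts and 3 with limma, and for the control lines 1, but 2 with total counts and with limma. Of the differences between lines, 14 nuclear members were higher, but 27, 26 and 27 with total counts and limma at each pseudocount, and 22 lower, but 12, 11 and 11. The cause was not tested beyond the shift in scaling.

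Leaving out each library in turn gave, in C4-2, 11 to 13 mitochondrial falls, 4 to 9 nuclear rises (4 without control replicate 2 or ARv7 replicate 3) and 27 to 36 nuclear falls. In 22Rv-1 it gave 1 to 2 mitochondrial rises (2 without shcontrol replicate 3), 23 to 26 nuclear rises and 5 to 9 falls. Between control lines it gave 0 to 2 mitochondrial members higher (0 without C4-2 control replicate 1 or 2, and 2 without replicate 3), 9 to 11 lower, 18 to 20 nuclear members higher and 49 to 51 lower, and for the difference between lines 11 to 16 higher and 18 to 21 lower. The log2 ratio of mitochondrial to nuclear counts differed by -0.406 to -0.341 in C4-2 and -0.396 to -0.375 in 22Rv-1, and by -0.248 and -0.287 on medians. Between control lines it was -0.0332 (-0.0649 to -0.001), reversed to 0.0727 with summed FPKM and 0.228 on medians.

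Reversed single members were NDUFS5 in C4-2 (0.114 with limma at both pseudocounts), NDUFB4 between the lines (0.122 with total counts, 0.123 and 0.124 with limma) and NDUFS1 in the difference (0.185 with total counts). With the replicate block, 5 nuclear members rose and 32 fell in C4-2, and 25 rose and 6 fell in 22Rv-1. Libraries with the same number did not deviate together over genes (correlations -0.012, 0.0201 and -0.0167 in C4-2, -0.0192, -0.00647 and -0.058 in 22Rv-1). The check gave no sign of pairing by number, but it could miss a small effect or one limited to few genes.

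Depth limits members below about 10 CPM, such as MT-ATP8, SDHA and NDUFB8, whose counts were few, and 4 members with under 10 counts over all libraries. Unstated strand and multi-mapping rules limit MT-ND6, genes with pseudogenes and overlapping genes. Triplicate dishes do not show how other selected populations would vary.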

Other observations

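Values for neighbouring pathways belong to no complex. Beside the counts given here, 59.1% of all genes tested were called in C4-2 and 48% in 22Rv-1. Of 17 genes of coenzyme Q synthesis and electron entry, 7 rose and 4 fell with ARv7 in C4-2, and 4 rose and 1 fell on depletion in 22Rv-1. COQ2, which attaches the side chain of coenzyme Q, rose in C4-2, at 18.5 ± 2.50 CPM in C4-2 ARv7 cells and 8.67 ± 1.01 CPM in C4-2 control cells (log2 fold change 1.09, adjusted p = 1.76e-06), and fell on depletion, at 11.2 ± 0.263 CPM in 22Rv-1 shARv7 cells and 18.1 ± 2.74 CPM in 22Rv-1 shcontrol cells (log2 fold change -0.69, adjusted p = 3.1e-06). DHODH, the pyrimidine synthesis enzyme that feeds electrons to coenzyme Q, rose in C4-2, at 41.9 ± 1.24 CPM in C4-2 ARv7 cells and 28.4 ± 1.07 CPM in C4-2 control cells (log2 fold change 0.56, adjusted p = 8.92e-06). COQ10B went the other way from COQ2, at 30.6 ± 1.14 CPM in C4-2 ARv7 cells and 41.7 ± 4.47 CPM in C4-2 control cells (log2 fold change -0.45, adjusted p = 0.000316), and at 70.9 ± 1.89 CPM in 22Rv-1 shARv7 cells and 46.3 ± 3.40 CPM in 22Rv-1 shcontrol cells (log2 fold change 0.61, adjusted p = 1.45e-11).

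Of 12 genes of the citric acid cycle, 4 rose and 4 fell in C4-2, and 1 rose and 2 fell in 22Rv-1. IDH3B, a subunit of the NAD-dependent isocitrate dehydrogenase, fell in C4-2, at 95.5 ± 0.730 CPM in C4-2 ARv7 cells and 133 ± 11.2 CPM in C4-2 control cells (log2 fold change -0.48, adjusted p = 6.03e-06). MDH2, the mitochondrial malate dehydrogenase, rose on depletion, at 426 ± 7.43 CPM in 22Rv-1 shARv7 cells and 344 ± 25.5 CPM in 22Rv-1 shcontrol cells (log2 fold change 0.31, adjusted p = 5.68e-08). Of 12 genes of mitochondrial import, chaperones and the outer membrane, 2 rose and 4 fell in C4-2, and 3 rose and 3 fell in 22Rv-1. HSPD1, the matrix chaperonin, rose in C4-2, at 942 ± 18.4 CPM in C4-2 ARv7 cells and 696 ± 5.83 CPM in C4-2 control cells (log2 fold change 0.44, adjusted p = 9.34e-07), and HSPA9, the import motor, fell on depletion, at 952 ± 14.5 CPM in 22Rv-1 shARv7 cells and 1251 ± 9.32 CPM in 22Rv-1 shcontrol cells (log2 fold change -0.39, adjusted p = 1.77e-14).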
